A study of Mus musculus with 8 samples.

Results

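The genes described here are 44 genes of mitosis, taken by symbol for their part in the G2 and M phases. The rule uses no measured value, but these genes and the lists compared with them were chosen with earlier results of these data known. All 44 stood among the 16130 genes of the count table, and all 44 passed the filter on low counts, which kept 14311 genes. The tissue was distal colon, and in both groups the mice carried Tcf4Het/+ together with ApcMin/+. The 4 libraries labelled EE came from mice kept for 4 months in enriched housing and the 4 labelled NE from mice kept for 4 months in conventional housing. Apc restrains Wnt signalling, its Min allele encodes a shortened protein, and carriers grow intestinal adenomas. The labels give neither the age and sex of the mice nor what the Tcf4 allele is, and they do not say whether a library is 1 mouse or whether adenomas were part of the tissue. Every p-value therefore measures the spread between these 8 libraries.

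Mitosis begins when Cdk1, bound to A and B type cyclins, is freed of inhibitory phosphates by Cdc25 phosphatases. Chromosomes are then compacted by condensin and topoisomerase II, captured by spindle microtubules at the kinetochore, and held by the spindle checkpoint until every chromosome is attached. Cdc20 then turns on the anaphase promoting complex, which works with Ube2c to destroy cyclin B, and the cytokinesis machinery parts the daughter cells. In the colon, dividing cells lie mainly in the lower crypt, among the stem and transit-amplifying cells. In adenomas driven by loss of Apc, dividing cells extend beyond that zone. The transcripts of these genes are known to rise together late in each cell cycle, under Foxm1, B-Myb and the MuvB complex, which acts through CHR elements, and under NF-Y, which binds CCAAT boxes.

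The promoter sequences are shown because all 44 transcripts had a higher fitted level in EE and because these motifs are the known shared feature of the family. Promoters were found in RefSeq (GRCm38.p6) for 34 members, as 36 start sites. No entry was found for Aurkb, Ccna2, Cdc25c, Foxm1, Incenp, Kif20a, Pbk, Smc4, Spc24 and Tpx2. The 250 bases before each start were searched on both strands for CCAAT (read as ATTGG on the other strand) and for the CHR letters TTTGAA or TTCGAA (read as TTCAAA or TTCGAA). In the 6 examples below, the 150 bases before the start are printed 5′ to 3′ on the gene's strand, with motif letters in capitals. Top2a has the most matches, Mki67 is the usual proliferation marker, and Nuf2 has no match. Top2a, Ect2, Kif11 and Nuf2 had EE values above every NE value, and Mki67 and Ccnb2 did not.
Top2a: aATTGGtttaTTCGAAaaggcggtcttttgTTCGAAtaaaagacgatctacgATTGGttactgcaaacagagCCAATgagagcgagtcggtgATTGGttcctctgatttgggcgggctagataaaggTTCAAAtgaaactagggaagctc
Mki67: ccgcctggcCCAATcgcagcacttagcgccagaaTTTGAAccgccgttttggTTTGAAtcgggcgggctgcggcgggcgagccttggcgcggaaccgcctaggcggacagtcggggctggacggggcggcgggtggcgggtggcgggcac
Ect2: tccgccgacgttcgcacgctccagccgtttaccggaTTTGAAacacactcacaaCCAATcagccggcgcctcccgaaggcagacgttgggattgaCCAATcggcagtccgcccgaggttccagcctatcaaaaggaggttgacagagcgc
Kif11: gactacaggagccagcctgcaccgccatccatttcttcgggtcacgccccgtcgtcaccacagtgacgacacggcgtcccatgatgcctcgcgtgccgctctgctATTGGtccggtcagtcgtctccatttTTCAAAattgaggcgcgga
Ccnb2: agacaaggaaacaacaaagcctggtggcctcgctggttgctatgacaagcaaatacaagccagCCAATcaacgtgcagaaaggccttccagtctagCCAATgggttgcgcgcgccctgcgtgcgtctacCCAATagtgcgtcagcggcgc
Nuf2: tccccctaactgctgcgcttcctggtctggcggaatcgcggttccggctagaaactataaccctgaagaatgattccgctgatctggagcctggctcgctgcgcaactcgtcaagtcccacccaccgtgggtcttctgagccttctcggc
They lie at chr11:99024190-99024339 (minus strand), chr7:135716380-135716529 (minus strand), chr3:27153879-27154028 (minus strand), chr19:37376232-37376381 (plus strand), chr9:70421555-70421704 (minus strand) and chr1:169531465-169531614 (minus strand) on GRCm38.

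A CCAAT match was present in 27 of the 36 member promoters (75%), against 34.5% of the 13511 promoters of genes tested here and 33.8% of all 32851 promoters. Of the 36 member promoters 16 (44.4%) held 2 or more CCAAT matches, against 12.1% of the promoters of genes tested, 37% of those of other mitotic genes and 32% of those of DNA replication genes. A CHR match was present in 14 of the 36 (38.9%), against 12.4% of the promoters of genes tested and 17.1% of all promoters. Ccnb2 shows the arrangement plainly, with CCAAT letters that begin 87, 54 and 21 bases before the start. Promoters of other mitotic genes had both features, at 67.4% for CCAAT and 37% for CHR over 46 start sites. Those of DNA replication genes had CCAAT at 64% over 25 start sites. Their CHR share was 20%, or 5 promoters, which is near the 17.1% of all promoters. Fold changes of members with and without a match are given as a description, with no test, and leave out the 10 members with no promoter entry, Foxm1 and Incenp among them. The 25 members with a CCAAT match had a median log2 fold change (EE minus NE) of 0.35, and so had the 9 without. The median was 0.35 for the 13 members with a CHR match and 0.33 for the 21 without. A match is a description of these letters and not of binding.

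Every one of the 44 mitosis genes had a higher fitted level in the EE libraries than in the NE libraries, by a small amount. The median log2 fold change was 0.36, or 1.28-fold, with a range from 0.01 for the kinetochore gene Spc24 to 0.55 for the passenger complex scaffold Incenp and the transcription factor Foxm1. Over all 14311 genes the median was 0.00, and 50.3% of genes had a positive value against 100% of the members. An unadjusted p under 0.05 with a higher level in EE was found for 24 members (54.5%), against 5.73% of all genes tested, and 0 members had such a p with a lower level, against 3.75%. The 4 EE values lay above the 4 NE values in 13 members (29.5%), against 2.87% of all genes. In a further 14 members 3 of the 4 EE libraries lay above every NE library, in 11 members 2 did, and in 6 members 1 did.

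No single mitosis gene passed the test over all genes. With edgeR's quasi-likelihood test and Benjamini-Hochberg adjustment, 0 members had an adjusted p under 0.05, and their adjusted p ran from 0.520 to 0.994. DESeq2 also called 0 of the 44, with 25 higher in EE at an unadjusted p under 0.05 (against 6.07% of all genes), and limma-voom called 0, with 23 (against 5.15%). Over all genes edgeR called 0 (0% of those tested), limma-voom 0 and DESeq2 14 (0.0978%). The 44 genes were read in the same 8 libraries, so they are not 44 separate observations.

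**Figure D1:**
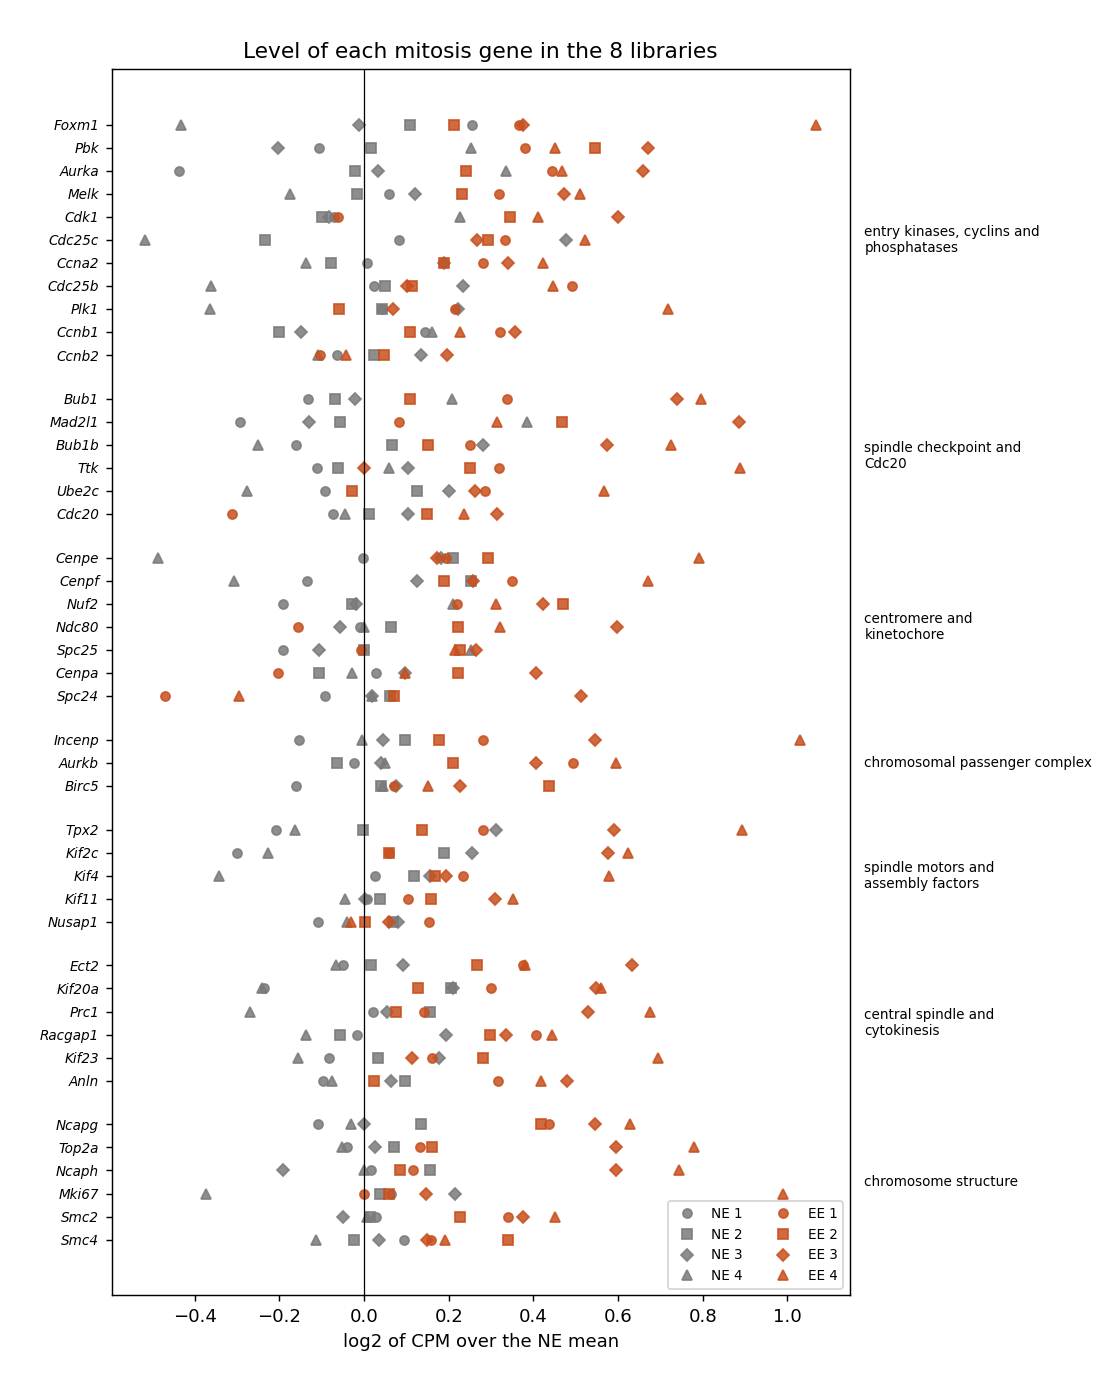
Level of each of the 44 mitosis genes in each library, as log2 of its CPM (counts scaled to the size of the library) over the NE mean of that gene, with NE libraries in grey and EE libraries in orange and genes grouped by role. The orange symbols lie mostly to the right of the grey ones, and EE 4 (triangle) is the highest library for 26 of the 44 genes.

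Depth differed between the members. Counts over all genes summed to between 4735764 and 10586851 per library, and a single member had between 27 and 3291 counts in a library, with the fewest for Cdc25c (27 to 95 counts). Values below are CPM, which are counts scaled by the TMM-adjusted library size, given as mean ± SD with n = 4 libraries in each group. The members had a median coefficient of variation of 10.4% in NE and 15.0% in EE, and in 30 of the 44 it was higher in EE. The 11029 genes tested in the same range of level also had the higher value in EE, at 12.2% in NE and 19.2% in EE.

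Among the genes of mitotic entry, 11 of 11 were higher in EE, with a median log2 fold change of 0.34, and 6 had an unadjusted p under 0.05. The kinase Pbk, which is made in mitotic cells, stood at 32.4, 35.3, 30.3 and 41.6 CPM in NE 1 to NE 4 and at 45.4, 50.9, 55.6 and 47.7 CPM in EE 1 to EE 4. The groups did not overlap, and the log2 fold change was 0.52 (SE 0.13, unadjusted p = 0.00280). Melk, a kinase of the AMPK family that peaks in mitosis, stood at 27.5, 26.1, 28.7 and 23.4 CPM in the NE libraries, against 32.9, 31.0, 36.6 and 37.6 CPM in the EE libraries. Its groups did not overlap either (log2 fold change 0.39, SE 0.13).

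Cyclin A2, the product of Ccna2, partners Cdk2 in S phase and Cdk1 in G2. Ccna2 stood at 81.0, 76.3, 91.9 and 73.3 CPM in the NE libraries, against 97.9, 91.9, 102 and 108 CPM in the EE libraries. EE 2 was level with NE 3, so the groups met, and the log2 fold change was 0.31 (SE 0.11). Cdk1 itself averaged 63.9 ± 7.27 CPM in NE and 81.0 ± 14.8 CPM in EE (log2 fold change 0.35, SE 0.15), with EE 1 at 61.2 CPM inside the NE range. The 2 B type cyclins differed in value. Ccnb1 averaged 15.3 ± 1.99 and 18.3 ± 1.41 CPM (log2 fold change 0.26, SE 0.15). Ccnb2, whose level per kilobase of exon was the highest of this group at 27.2 CPM per kb, stood at 39.5, 42.0, 45.3 and 38.3 CPM in the NE libraries, against 38.4, 42.7, 47.3 and 40.1 CPM in the EE libraries. Its groups lay on top of each other, with a log2 fold change of 0.03 (SE 0.12). The difference between the cyclins was not tested.

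Aurka, the centrosome kinase that matures the spindle poles, averaged 21.4 ± 4.60 CPM in NE and 29.5 ± 3.51 CPM in EE (log2 fold change 0.46, SE 0.18). Plk1, the polo kinase that helps to trigger entry, averaged 37.3 ± 6.03 and 44.9 ± 11.4 CPM. Its log2 fold change was 0.27 (SE 0.19) with all libraries and 0.08 without EE 4. Foxm1, the forkhead factor that drives transcription of this family, stood at 13.6, 12.3, 11.3 and 8.45 CPM in the NE libraries, against 14.7, 13.2, 14.8 and 23.9 CPM in the EE libraries. The highest value was EE 4, and EE 2 lay inside the NE range. Its log2 fold change of 0.55 (SE 0.23) was 0.32 without EE 4. For the phosphatases the log2 fold change was 0.29 (SE 0.17) for Cdc25b and 0.34 (SE 0.24) for Cdc25c, and Cdc25c was the least abundant member per length, at 1.49 CPM per kb.

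The spindle checkpoint and Cdc20 group had 6 of 6 members higher in EE (median log2 fold change 0.42, and 0.27 without EE 4), 3 of them with an unadjusted p under 0.05. Bub1, a checkpoint kinase at the kinetochore, stood at 25.9, 27.1, 28.0 and 32.8 CPM in the NE libraries, against 35.9, 30.6, 47.4 and 49.3 CPM in the EE libraries. EE 2 lay below NE 4, so the groups overlapped, and the log2 fold change was 0.52 (SE 0.17). Its relative Bub1b averaged 40.0 ± 6.72 and 54.4 ± 10.2 CPM (log2 fold change 0.44, SE 0.17). Mad2l1, which binds and holds back Cdc20, averaged 49.5 ± 10.5 and 68.5 ± 16.6 CPM (log2 fold change 0.47, SE 0.20). Cdc20, the activator that the checkpoint restrains, stood at 34.3, 36.4, 38.8 and 35 CPM in the NE libraries, against 29.1, 40.0, 44.9 and 42.5 CPM in the EE libraries. EE 1 was the lowest of all 8 libraries and EE 3 the highest, and the log2 fold change was 0.12 (SE 0.15). The checkpoint kinase Ttk and the ubiquitin-conjugating enzyme Ube2c, which works with the anaphase promoting complex, differed by 0.40 (SE 0.20) and 0.28 (SE 0.16) on the log2 scale, and by 0.19 and 0.18 without EE 4.

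Kinetochore genes were the group with the smallest median, 0.28, and 2 of 7 had an unadjusted p under 0.05. Ndc80, Nuf2, Spc24 and Spc25 encode the 4 subunits of the NDC80 complex, which grips the microtubule. Nuf2 stood at 13.4, 15.0, 15.1 and 17.7 CPM in the NE libraries, against 17.8, 21.2, 20.5 and 19.0 CPM in the EE libraries, with every EE value above every NE value (log2 fold change 0.36, SE 0.14). Ndc80 averaged 15.6 ± 0.549 and 18.8 ± 3.94 CPM (log2 fold change 0.28, SE 0.17). Spc25, the most abundant kinetochore member per length at 7.48 CPM per kb, stood at 19.6, 22.4, 20.8 and 26.7 CPM in the NE libraries, against 22.3, 26.2, 26.9 and 26.0 CPM in the EE libraries (log2 fold change 0.18, SE 0.14). Spc24 stood at 15.2, 16.9, 16.4 and 16.4 CPM in the NE libraries, against 11.7, 17.0, 23.1 and 13.2 CPM in the EE libraries. Its EE values spread on both sides of the NE values, its log2 fold change was 0.01 (SE 0.21), and that value was −0.21 without EE 3. The values of the subunits ranged from 0.01 to 0.36, and no difference between them was tested.

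Cenpa, the histone H3 variant that marks the centromere, averaged 35 ± 2.08 CPM in NE and 38.7 ± 6.70 CPM in EE (log2 fold change 0.15, SE 0.14). Cenpe, a kinesin of the kinetochore, averaged 38.8 ± 7.91 and 50.6 ± 11.1 CPM, and its log2 fold change of 0.38 (SE 0.19) was 0.22 without EE 4. Cenpf, a large protein of the outer kinetochore, averaged 56.2 ± 9.71 and 73.1 ± 11.3 CPM (log2 fold change 0.38, SE 0.16).

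The chromosomal passenger complex corrects faulty attachments and later signals to the cleavage furrow. Its kinase Aurkb stood at 25.1, 24.4, 26.2 and 26.4 CPM in the NE libraries, against 35.9, 29.5, 33.8 and 38.5 CPM in the EE libraries. The NE libraries were tightly placed and all 4 EE libraries lay above them (log2 fold change 0.43, SE 0.13, unadjusted p = 0.00595). Incenp, the scaffold of the complex, stood at 30.9, 36.8, 35.5 and 34.3 CPM in the NE libraries, against 41.8, 38.9, 50.2 and 70.2 CPM in the EE libraries. Its groups did not overlap, EE 4 was far above the others, and the log2 fold change was 0.55 (SE 0.18) with EE 4 and 0.35 without it. Birc5, or survivin, averaged 28.3 ± 2.08 and 33.1 ± 3.70 CPM (log2 fold change 0.22, SE 0.13).

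All 5 spindle genes were higher in EE, with a median log2 fold change of 0.30, and 2 had an unadjusted p under 0.05. Tpx2, which starts microtubules near chromosomes and activates Aurora A, stood at 35.4, 40.8, 50.8 and 36.5 CPM in the NE libraries, against 49.7, 45.0, 61.6 and 75.9 CPM in the EE libraries. NE 3 lay above EE 1 and EE 2, and the log2 fold change was 0.51 (SE 0.19). The motor Kif11, which pushes the spindle poles apart, averaged 74.7 ± 1.75 and 87.9 ± 7.23 CPM (log2 fold change 0.23, SE 0.10), with no overlap between groups. Kif4, a chromosome-bound motor, had a log2 fold change of 0.30 (SE 0.15), and the microtubule depolymerase Kif2c 0.35 (SE 0.20). Nusap1, a microtubule bundler and the most abundant spindle gene per length at 12 CPM per kb, stood at 44.4, 50.2, 50.6 and 46.6 CPM in the NE libraries, against 53.3, 48.0, 49.9 and 46.9 CPM in the EE libraries. Only EE 1 lay above the NE values, and the log2 fold change was 0.05 (SE 0.11).

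Cytokinesis was the group with the narrowest range of log2 fold changes, from 0.32 to 0.42, and 5 of its 6 genes had an unadjusted p under 0.05. Ect2, the exchange factor that activates RhoA at the furrow and the most abundant of the group per length at 14.3 CPM per kb, stood at 63.6, 66.6, 70.1 and 62.8 CPM in the NE libraries, against 85.4, 79.2, 102 and 85.6 CPM in the EE libraries. The lowest EE value was above the highest NE value (log2 fold change 0.42, SE 0.11, unadjusted p = 0.00389), and without EE 4 the log2 fold change was 0.44. Its partner Racgap1, which recruits Ect2 to the central spindle, stood at 43.3, 42.1, 50.1 and 39.8 CPM in the NE libraries, against 58.0, 53.8, 55.3 and 59.6 CPM in the EE libraries. These groups did not overlap either (log2 fold change 0.37, SE 0.11). Kif23, the motor that forms the centralspindlin complex with Racgap1, averaged 39.1 ± 3.96 and 49.2 ± 9.63 CPM, and its log2 fold change of 0.33 (SE 0.15) was 0.19 without EE 4. The furrow scaffold Anln, the microtubule bundler Prc1 and the motor Kif20a had log2 fold changes of 0.32, 0.38 and 0.39.

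The chromosome structure genes had 6 of 6 members higher in EE, with a median log2 fold change of 0.39, and in 4 of them the groups did not overlap. Condensin, which compacts chromosomes, is built on Smc2 and Smc4, with Ncapg and Ncaph as subunits of condensin I. Ncapg stood at 21.8, 25.8, 23.5 and 23.0 CPM in the NE libraries, against 31.8, 31.4, 34.3 and 36.3 CPM in the EE libraries. The groups were well apart, and its log2 fold change of 0.51 (SE 0.12) had the smallest unadjusted p of the 44, 0.00172. Smc2 stood at 76.9, 76.1, 72.8 and 75.7 CPM in the NE libraries, against 95.5, 88.2, 97.8 and 103 CPM in the EE libraries, again without overlap (log2 fold change 0.35, SE 0.10). Smc4 averaged 120 ± 7.24 and 139 ± 9.16 CPM (log2 fold change 0.21, SE 0.10), and Ncaph 26.5 ± 2.60 and 35.3 ± 8.18 CPM (log2 fold change 0.42, SE 0.17).

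Top2a, which encodes topoisomerase II alpha and was the most abundant member per length at 36.9 CPM per kb, stood at 274, 296, 287 and 272 CPM in the NE libraries, against 309, 315, 426 and 484 CPM in the EE libraries. EE 1 and EE 2 lay just above the NE libraries and EE 3 and EE 4 far above them (log2 fold change 0.44, SE 0.16). Mki67, the gene of the proliferation antigen Ki-67, which coats mitotic chromosomes, stood at 275, 270, 305 and 203 CPM in the NE libraries, against 263, 274, 291 and 522 CPM in the EE libraries. EE 1, EE 2 and EE 3 lay inside the NE range, and only EE 4 was above it. Its log2 fold change was 0.36 (SE 0.23, edgeR adjusted p = 0.582) with EE 4 and 0.07 without it.

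**Figure D2:**
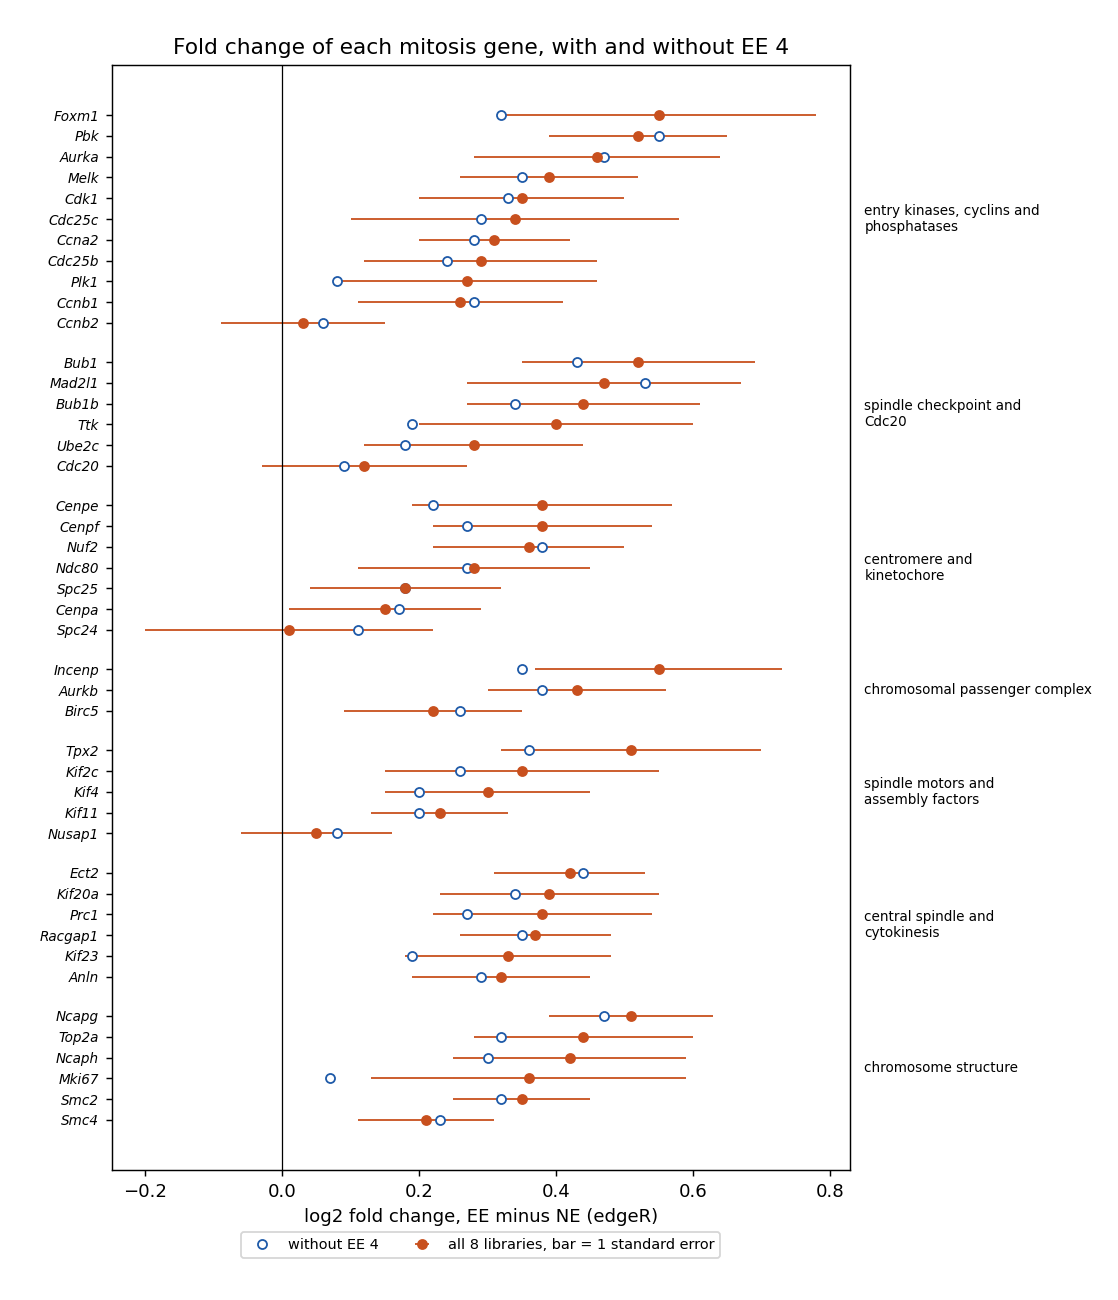
Log2 fold change (EE minus NE) of each mitosis gene from edgeR, grouped by role, with all 8 libraries (orange, bars of 1 standard error) and without EE 4 (open blue). All 44 orange points lie to the right of 0, and the blue point is the lower of the pair for 32 genes, most of all for Mki67.

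The EE libraries did not contribute equally. The 44 genes together summed to 2086, 2200, 2277 and 2002 CPM in NE 1 to NE 4 and to 2417, 2440, 2828 and 3228 CPM in EE 1 to EE 4, so each EE library lay above each NE library. EE 4 was the highest library for 26 members and EE 3 for 13, while NE 4 was the lowest for 21 and NE 1 for 13. Of the 44 members, 25 exceeded every NE library in EE 1, 23 did so in EE 2, 36 in EE 3 and 38 in EE 4. Over all genes tested the corresponding shares were 25.6%, 18.2%, 29.1% and 34.5%. EE 4 stood apart from the other EE libraries by different amounts. It was above their mean log2 level by 0.92 for Mki67, 0.75 for Foxm1, 0.70 for Incenp, 0.70 for Ttk and 0.64 for Plk1. For Pbk, Ect2, Nuf2, Ccnb1, Ccnb2, Birc5, Mad2l1, Nusap1, Smc4, Cenpa and Spc24 it was below that mean.

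Without EE 4 the 44 log2 fold changes were still all positive, with a median of 0.28. An unadjusted p under 0.05 was then found for 14 members (31.8%), all among the 24 above, against 3.95% of all genes, and the groups did not overlap for 13 (29.5%), against 4.01%. The number with an unadjusted p under 0.05 also dropped without NE 1, to 12 (against 2.90% of all genes), and without NE 4, to 14 (against 6.22%). The number without overlap became 20 without NE 3 (against 4.23%) and 22 without EE 2 (against 8.79%). In bulk RNA, more dividing cells and more of these transcripts per dividing cell cannot be told apart.

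Markers of other tissue layers also varied between libraries. Of smooth muscle, fibroblast and endothelial markers, only those of smooth muscle summed below every NE library in both EE 3 and EE 4. The 9 smooth muscle markers, all lower in EE by fitted value, summed to 3447 to 5564 CPM in NE and to 4067, 4323, 2278 and 670 CPM in EE 1 to EE 4, so the libraries with the least muscle RNA, EE 4 and EE 3, were those with the highest sums of mitosis genes. Within NE the order differed, since NE 4 had the lowest muscle sum and also the lowest sum of mitosis genes. The 7 fibroblast markers summed to 1458 to 1693 CPM in NE and to 1140, 1851, 1975 and 448 CPM in EE 1 to EE 4, so EE 2 and EE 3 lay above every NE sum. All 7 had a lower fitted value in EE, with a median log2 fold change of −0.22, which turned to 0.07 without EE 4. Of the 5 endothelial markers 4 were lower in EE, with sums of 106 to 113 CPM in NE and 50.6 to 112 CPM in EE and a median log2 fold change of −0.35, or −0.09 without EE 4. None of these markers was at 0 in any library. The part of these shifts in the values of the mitosis genes was not tested.

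The 11 epithelial markers, among them Epcam, Krt8 and Vil1, summed to 9279 to 12500 CPM in NE. In EE 1 to EE 4 they summed to 12198, 10721, 8038 and 9134 CPM, so EE 3 and EE 4 lay below every NE sum. By fitted value 9 of the 11 were lower in EE. When libraries were scaled to the summed counts of these markers instead of TMM, all 44 mitosis genes were again higher in EE. Their median log2 fold change was then 0.48, and the median over all genes moved to 0.12. Under that scaling 17 members had an unadjusted p under 0.05 (against 4.68% of all genes) and 4 did not overlap (against 1.24%). The markers of hindgut position Hoxa13, Hoxb13 and Hoxd13, and Cdx1 and Cdx2 of the epithelial list, were present in every library.

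Lymphocytes also divide in the colon, so their markers were read as well. The 5 B cell markers that were tested of 6 had sums of 21.9 to 46.4 CPM in NE and 5.87 to 39.8 CPM in EE and were lower in EE in 5 of 5, with Pax5 at 0 counts in EE 4. The 4 germinal centre markers found of 6 had sums of 43.3 to 58.2 and 43.5 to 59.7 CPM, and 2 of 4 were lower in EE. T cell markers (5 of 6 lower) summed to 20.4 to 26.9 and 10.8 to 23.7 CPM, and myeloid markers (5 of 5 lower) to 425 to 742 and 250 to 944 CPM. Without EE 4 the median log2 fold change moved from −0.79 to −0.51 for B cell markers, from −0.41 to −0.15 for T cell markers and from −0.24 to −0.04 for myeloid markers. Their part in the result was not tested.

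**Figure D3:**
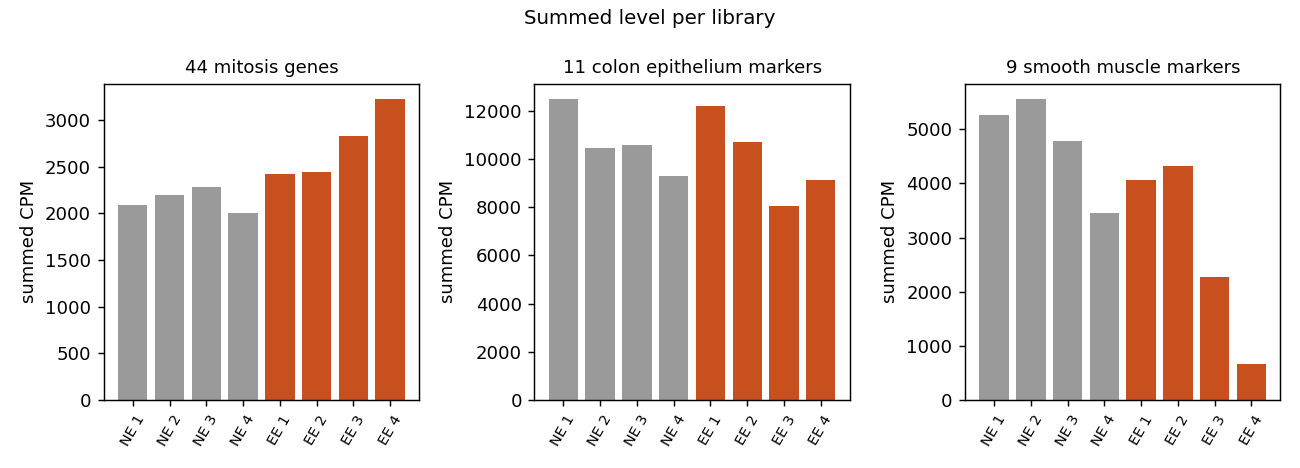
Summed CPM per library of the 44 mitosis genes, of 11 colon epithelium markers and of 9 smooth muscle markers (bars from 0, NE grey, EE orange). The mitosis sums are 2417 to 3228 CPM in EE against 2002 to 2277 CPM in NE, and the smooth muscle sum is lowest in EE 4, at 670 CPM.

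Other mitotic genes outside the 44 had values of the same kind. Of 45 such genes 43 were higher in EE, with a median log2 fold change of 0.42. Of the 45, 23 (51.1%) were higher with an unadjusted p under 0.05, against 5.73% of all genes. Cep55, which recruits the abscission machinery to the midbody, averaged 22.9 ± 2.41 CPM in NE and 34.5 ± 2.98 CPM in EE (log2 fold change 0.60, SE 0.13). Kif15, a spindle motor that works beside Kif11, averaged 34.8 ± 4.19 and 50.9 ± 3.81 CPM (log2 fold change 0.55, SE 0.13). Sgol2a, a shugoshin that guards centromeric cohesion, averaged 8.80 ± 0.706 and 13.9 ± 2.28 CPM (log2 fold change 0.65, SE 0.18). DNA replication genes, which act earlier in the cycle, were higher in EE in 25 of 25, with a median of 0.40. An unadjusted p under 0.05 was found for 14 of them (56.0%), against 5.73% of all genes higher in EE. Rrm2, the small subunit of ribonucleotide reductase, averaged 28.4 ± 4.74 and 50.2 ± 5.09 CPM (log2 fold change 0.83, SE 0.14), with an adjusted p of 0.520 in edgeR and 0.00505 in DESeq2. Rrm1, the large subunit, averaged 104 ± 6.24 and 148 ± 20.9 CPM, and the DNA ligase Lig1 41.0 ± 2.24 and 59.9 ± 10.1 CPM. No difference between the mitosis and replication lists was tested.

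The lists of regulators of these genes, which leave out the member Foxm1 (log2 fold change 0.55), showed smaller median values. Of 17 MuvB, Myb and E2F genes 13 were higher in EE (median log2 fold change 0.15). With an unadjusted p under 0.05, 5 (29.4%) were higher, against 5.73% of all genes. The repressors E2f8 and E2f7, themselves made late in the G1 and S phases, had higher EE means. E2f8 averaged 11.1 ± 2.09 CPM in NE and 17.4 ± 3.28 CPM in EE, without overlap (log2 fold change 0.64, SE 0.19). E2f7 had few counts and averaged 3.50 ± 0.602 and 7.80 ± 4.30 CPM (log2 fold change 1.15, SE 0.39). Its EE 2 value, 3.06 CPM, lay inside the NE range, and EE 4 was the highest, at 13.3 CPM. Lin9, a MuvB subunit, averaged 16.8 ± 1.88 and 22.3 ± 3.04 CPM (log2 fold change 0.41, SE 0.15). Mybl2, the gene of B-Myb, averaged 7.02 ± 1.10 and 11.1 ± 5.55 CPM (log2 fold change 0.66, SE 0.32). Its highest value was EE 4, at 19.2 CPM, and EE 2 and EE 3, at 7.08 and 7.86 CPM, lay inside the NE range. The NF-Y subunits Nfya, Nfyb and Nfyc, whose complex binds CCAAT boxes, had log2 fold changes of −0.06 (SE 0.18), 0.16 (SE 0.11) and 0.01 (SE 0.13), and 0 of 3 had an unadjusted p under 0.05. The signs of Nfya and Nfyc varied with the scaling or with the library left out.

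Lists of other parts of the division machinery had medians nearer to 0. Of 16 genes of the anaphase promoting complex and its regulators 13 were higher, with a median log2 fold change of 0.13, and 0 had an unadjusted p under 0.05. Among them the inhibitor Fbxo5 averaged 11.1 ± 1.51 and 14.2 ± 1.94 CPM. Of 9 cohesin genes 8 were higher (median 0.13), with Smc3 at 91.2 ± 2.85 and 107 ± 4.21 CPM and the 1 unadjusted p under 0.05. The 9 G1 cyclins and kinases were all higher, with a median of 0.20, and 1, Ccne1, had an unadjusted p under 0.05 (13.6 ± 3.16 and 18.5 ± 2.83 CPM). That 1 gene is 11.1% of the G1 list, as Smc3 is of the cohesin list, against 5.73% of all genes. A single gene sets the share in a list of 9, so it is no result about either list.

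The brakes of the cycle went both ways. Of 18 inhibitors 8 were higher and 10 lower in EE, with a median log2 fold change of −0.12, or −0.03 without EE 4. Cdkn1c, which encodes the inhibitor p57, averaged 19.4 ± 2.05 CPM in NE and 31.5 ± 13.4 CPM in EE (log2 fold change 0.71, SE 0.28). Its EE values were uneven, at 22.1, 17.8, 43.2 and 42.8 CPM, with EE 2 inside the NE range. Ccng1, a p53 target, averaged 259 ± 28.0 and 206 ± 21.8 CPM (log2 fold change −0.33, SE 0.13). Trp53 averaged 50.5 ± 3.54 and 68.2 ± 19.4 CPM, with EE 2, at 45.6 CPM, the lowest of all 8 libraries. These 3 had an unadjusted p under 0.05, and 0 of the 18 had an adjusted p under 0.05 in edgeR. The 2 that were higher in EE were 11.1% of the list, against 5.73% of all genes. The 1 that was lower stands against 3.75% of all genes. Counts this small and near those shares are no result about the list.

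**Figure D4:**
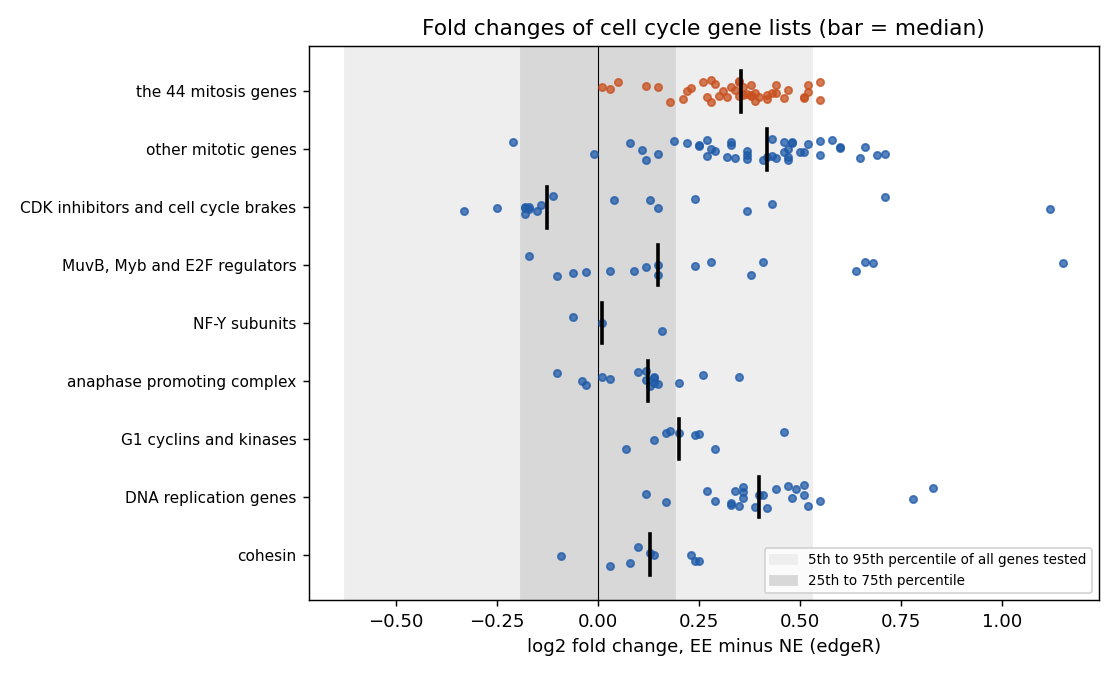
Log2 fold changes (EE minus NE) of the 44 mitosis genes and of 8 other cell cycle lists, each point a gene and each black bar the list's median, over the 5th to 95th and 25th to 75th percentiles of all genes tested (grey bands). The medians are 0.36 for the mitosis genes, 0.42 for other mitotic genes, 0.40 for replication genes and −0.12 for inhibitors.

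The authors' deposited table gives its own fold change and false discovery rate for each gene. In the authors' deposited table, none (0) of the 44 members had a rate under 0.05. In the authors' deposited table their rates ran from 0.177 for Incenp to 1. The authors' deposited table has a negative log2 fold change for 43 of the 44, with a median of −0.30, the opposite sign to EE minus NE. The header of the authors' deposited table does not name the numerator, and its sign was opposite to EE minus NE for 97.8% of all genes tested here. A ratio of NE over EE would give that, and so would exchanged column names, so the direction of every difference above is that of the column labels.

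The counting method bears on a few members. Exons of Ccna2, Cdc20, Cdc25b, Kif20a, Kif4, Ncapg, Nusap1 and Prc1 overlap an exon of another counted gene on the opposite strand in GENCODE M21 (GRCm38), and whether counting used the strand is not given in the sources used here. For Kif20a the overlap with Cdc23 is 1271 bases, and for Ncapg that with Lcorl is 944 bases. The partners had log2 fold changes between −0.08 and 0.33. Without strand, reads from the shared bases cannot be told apart between a member and its partner.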

How the data were processed

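Per the labels' protocols, a stranded kit with ribosomal RNA removal was applied to total RNA, and 50 bases were sequenced from 1 end. The submitters' processing notes name DESeq 1.14.0, Novoalign 2.08.01 and mm10. Annotation and counting settings: not given in the sources used here. The authors deposited raw counts per gene (whole numbers, smallest total over the libraries 12), with a log2 fold change and an adjusted p-value from their own comparison.

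The counts were tested in R 4.3.3 with edgeR 4.0.16 (filterByExpr, TMM, robust quasi-likelihood, EE against NE, no covariate, Benjamini-Hochberg over 14311 genes, threshold 0.05). The standard error is the log2 fold change divided by the square root of F. Levels per kilobase used merged exon lengths of GENCODE M21. DESeq2 1.42.0, limma 3.58.1 (voom), other scalings and filters, a replicate block and each library left out in turn were the alternatives.

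Members and lists were chosen with earlier results of these data known. Full values are given for the 12 members with the smallest p, the most abundant per length in each of 7 roles, and, chosen after their values were seen, Mki67, Foxm1, Nuf2 and Spc24. Up to 3 genes with the smallest p were named per other list, and Mybl2 was added after its values were seen.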

Additional observations from a re-analysis of the deposited data

Results flagged for a closer look

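In 88 groups of 4 values (44 genes, each in NE and in EE), 6 single values lay far from the other 3 of their group. Chance gives about 1 in 20 groups if the groups are independent. These groups come from the same 8 libraries, so that rate cannot decide whether the count is high. The share over all genes tested is not given. EE 4 holds 4 of them. Mki67 was at 522 CPM in EE 4, against 263 to 291 CPM in the other EE libraries. Foxm1 was at 23.9 CPM in EE 4, against 13.2 to 14.8 CPM. Cenpe was at 67.1 CPM in EE 4, against 43.7 to 47.5 CPM, and Kif4 at 50.9 CPM, against 38.3 to 40.1 CPM. In NE, Cdk1 was at 74.8 CPM in NE 4, against 59.6 to 60.8 CPM in the other NE libraries, and Birc5 at 25.3 CPM in NE 1, against 29.1 to 29.8 CPM.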

How the results depend on the processing

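Over 17 alternatives, 741 of 748 values of single members kept their direction and stayed short of the threshold, and the lowest adjusted p of any member was 0.0911. Spc24 turned negative with limma-voom (−0.03) and with the replicate block (−0.03), and ran from −0.21 to 0.13 over the libraries left out, with a negative value without NE 1 (−0.02), EE 2 (−0.01) or EE 3. Ccnb2 ran from −0.02 (without EE 3) to 0.08, and was −0.00479 without NE 4. Nfya turned to 0.04 when scaled to epithelial markers and ran from −0.20 to 0.03 over the libraries left out, positive without NE 2 (0.01) or NE 4. Nfyc ran from −0.02 to 0.07, negative without NE 1, NE 4 (−0.01), EE 1 or EE 2 (−0.00328). The number of members with an unadjusted p under 0.05 was 24, and 15 with the replicate block (34.1% of members, against 4.43% of all genes); it ran from 12 to 24 over the libraries left out. The number without overlap was 13, and 4 when scaled to epithelial markers, where the median log2 fold change was 0.48; it ran from 13 to 22 over the libraries left out. The number of members higher in EE ran from 42 to 44 and, over the libraries left out, the median from 0.28 to 0.40. DESeq2 called 14 genes of all tested, and leaving out a library gave 0 or 1. The causes were not tested. The titles number the libraries, but no pairing is labelled. The correlation of same-numbered libraries around their group means was 0.254, 0.0101, −0.18 and −0.0374. Differently numbered libraries were not compared, so these values cannot decide whether the libraries are paired. Members with few counts, such as Cdc25c, are limited by depth.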
